A study of Danio rerio with 13 samples.

Results

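The regions described here are the methylation peaks that lie in exons and outside CpG islands in ZF4 cells, an embryonic fibroblast cell line of zebrafish. They were taken from the reference peak set by the annotation that comes with it, as all peaks whose genomic region is exon and which are not marked as CpG island. This gave 18412 of 160561 peaks (11.5%). For comparison, 1685 peaks lay in exons and in CpG islands, 58477 in introns outside CpG islands and 12198 in promoters outside CpG islands.

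The cold cultures were kept at 18°C, either 5 days (named 18°C /5d) or 30 days (named 18°C /30d), and the control cultures at 28°C. Methylated DNA was captured with MeDIP-seq, in which DNA fragments that carry methylated cytosines are enriched and sequenced, so that the reads on a peak are a relative measure of methylation and not a percentage of methylated cytosines. Each condition gave 1 MeDIP library, made from the pooled DNA of 3 cultures, and a test on the reads therefore compares libraries and not conditions. RNA-seq was done on 3 libraries per condition.

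Methylation of gene bodies, the transcribed part of genes, is common in vertebrates, whereas CpG islands are mostly free of it. In mammals, the H3K36 methyltransferase SETD2 marks the bodies of transcribed genes, the PWWP domains of the enzymes DNMT3A and DNMT3B bind H3K36 methylation, and DNMT1, guided by UHRF1, copies the methylation after replication. TET enzymes oxidise methylated cytosine. Methylation of promoters is best known from silent genes, and methylation of exons and introns from active ones.

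The MeDIP libraries held 2465050 reads on peaks at 18°C /5d, 2406158 at 18°C /30d and 2952954 at 28°C, and RPM values are relative to these totals. Total RNA counts were between 37509447 and 44853311 in replicates 1 and 2 and between 21407769 and 22504969 in replicate 3 of the 3 conditions. Replicate 3 stood apart in each condition also in its make-up, with 15.1 to 16.0% of its counts in the 10 most abundant genes, against 4.99 to 6.28% in replicates 1 and 2. Of 12 fibroblast marker genes, 11 had a mean RPKM of at least 1 at 28°C, and their summed RPKM was between 834 and 1065 at 18°C /5d, between 613 and 1245 at 18°C /30d and between 901 and 1440 at 28°C. The mesenchymal intermediate filament gene vim was the exception with 0.960 RPKM at 28°C, and of 4 epithelial genes cdh1 had 28.2 RPKM at 28°C, krt4 13.8 (38.7 in replicate 3, against 0.740 and 1.81 in replicates 1 and 2), krt5 0.147 and epcam 0. The 3 neuronal markers summed to at most 3.58 RPKM, the 4 blood and leukocyte genes to at most 3.17, the 2 muscle genes to at most 0.420 and the 2 endothelial genes to at most 0.650 in any library.

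The exon peaks had a median length of 856 bases (quartiles 600 and 1239, range 247 to 11220). At 18°C /5d, 13252 of them (72.0%) had reads, at 18°C /30d 13213 (71.8%) and at 28°C 13834 (75.1%). Among peaks with reads, the median was 14.0 reads at 18°C /5d, 15.0 at 18°C /30d and 16.0 at 28°C. Most exon peaks were therefore shallow, and 272 peaks at 18°C /5d, 127 at 18°C /30d and 269 at 28°C had 100 reads or more. The exon peaks took 11.9% of the reads at 18°C /5d, 11.5% at 18°C /30d and 11.5% at 28°C, close to their share of the peaks.

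The lowest count above 0 on an exon peak was 3 reads at 18°C /5d, 4 at 18°C /30d and 4 at 28°C, while 5160, 5199 and 4578 peaks stood at exactly 0 in these libraries. Counts of 1 and 2 did not occur on these peaks. A peak at 0 is described here only as listed at 0, and no fold change is given against such a value.

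**Figure D1:**
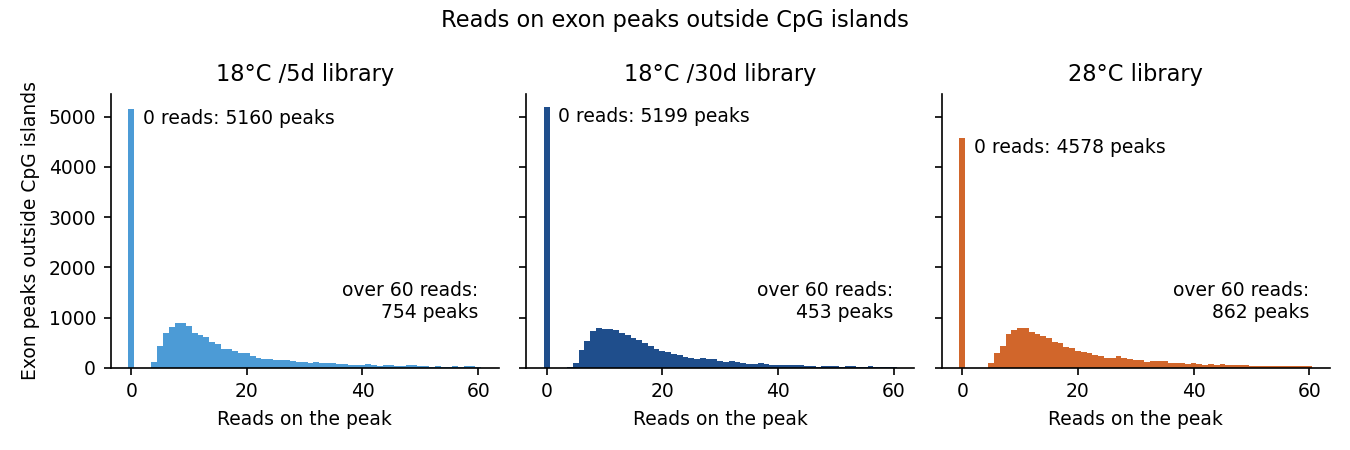
Number of exon peaks outside CpG islands (y axis) by their reads (x axis, 0 to 60) in the library of each condition. The bar at 0 reads stands alone at 5160 (18°C /5d), 5199 (18°C /30d) and 4578 (28°C) peaks, with no peak at 1 or 2 reads beside it.

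Reads in all 3 libraries were found on 9038 exon peaks (49.1%, 95% Wilson interval 48.4 to 49.8), against 45.5% of intron peaks and 47.4% of promoter peaks outside CpG islands and 66.5% of exon peaks in CpG islands. A further 2128 exon peaks had reads in the 18°C /5d library alone, 1587 in the 18°C /30d library alone and 1848 in the 28°C library alone. Per kilobase, the exon peaks had a median of 6.63 RPM at 18°C /5d, 6.53 at 18°C /30d and 6.10 at 28°C, and all peaks of the series 6.46, 6.64 and 6.20. The intervals cover counting error only. By these levels the exon peaks did not stand apart from the other peaks. Their share of the peaks of a chromosome was between 8.29% on chromosome 4 and 14.6% on chromosome 21.

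Of the exon peaks, 17980 were assigned to 9896 genes, which is 30.3% of the 32677 genes in the RNA table, and 432 carried no gene identifier. One exon peak was found in 5748 of these genes, 2 in 2258, 3 in 944, 4 in 451 and 5 or more in 495. The genes were long: their median deposited length, the length behind the RPKM values, was 3652 bases with an exon peak and 1285 bases without. An intron peak was also present in 68.1% of the 9896 genes, a promoter peak in 37.6% and a downstream peak in 20.1%.

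The genes with most exon peaks were BAZ2B and cabin1 with 15 each, dmd and kif13a with 13 each, and NEO1 and plcg1 with 12 each. BAZ2B encodes a bromodomain protein of chromatin remodelling complexes, and its 15 peaks held 445 reads at 18°C /5d, 390 at 18°C /30d and 525 at 28°C. The peaks of dmd, the gene of dystrophin, held 454, 353 and 434 reads in the same order, and those of NEO1, the gene of the netrin receptor neogenin, 463, 345 and 475. All 6 genes were transcribed. The lowest of the 9 libraries was at 6.66 RPKM for BAZ2B, at 0.86 for cabin1, at 4.79 for dmd, at 4.24 for kif13a, at 2.75 for NEO1 and at 8.43 for plcg1. The highest single value among the 6 genes was 18.1 RPKM, in plcg1.

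The highest level per kilobase among peaks with reads in all 3 libraries was found in an exon of mbd6 (chr6:58771200-58773282, Zv9/danRer7), which encodes a protein with a methyl-CpG binding domain. This peak had 579 reads (235 RPM) at 18°C /5d, 283 reads (118 RPM) at 18°C /30d and 438 reads (148 RPM) at 28°C. A peak in a zinc finger protein gene (chr21:556265-558476) had 616, 304 and 454 reads in the same order. A peak in lsm14aa (chr25:36983575-36985061), an RNA-binding protein of processing bodies, had 323, 151 and 233 reads. In each of these 3 peaks the 18°C /5d library was the highest and the 18°C /30d library the lowest, and none was called in a comparison with 28°C. A peak in git2a (chr5:21696409-21697937), a GTPase-activating protein for Arf, varied less, with 274, 218 and 257 reads. Of these genes git2a and lsm14aa were expressed at 6.54 to 16.1 RPKM over the 9 libraries, mbd6 at 1.82 to 5.69 and the zinc finger protein gene at 0.62 to 6.60.

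The relation of exon methylation to expression was examined at 28°C first. Exon peaks with reads at 28°C were present in 5560 of 14250 expressed genes (39.0%, 95% Wilson interval 38.2 to 39.8), that is genes with a mean RPKM of at least 1, and in 1416 of 13355 silent genes (10.6%, 10.1 to 11.1), that is genes under 0.1 RPKM. The difference was 28.4 percentage points, with a counting interval of 0.956 points to each side. Taken with each RNA library alone, it was 27.0, 27.3 and 29.6 points at 28°C (28.0 ± 1.39, SD, n = 3). All 3 values share the 1 MeDIP library at 28°C, so this spread is that of the RNA libraries alone. How the difference would vary between MeDIP libraries was not measured. Genes are not replicates and no p-value is given across them.

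The cold libraries showed the same relation. At 18°C /5d the shares were 38.2% of expressed and 10.0% of silent genes, and at 18°C /30d 37.9% and 9.78%. The differences of 28.2 and 28.1 points lay within the counting interval of the 28°C value. With single RNA libraries, they were 28.0 ± 0.957 points at 18°C /5d and 28.0 ± 1.000 points at 18°C /30d (SD, n = 3). Here too the values of a condition share 1 MeDIP library.

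The relation was not a straight line. At 28°C the share of genes with an exon peak was 10.6% under 0.1 RPKM, 23.8% from 0.1 to 1 RPKM, 38.8% from 1 to 10 RPKM, 40.6% from 10 to 100 RPKM and 30.8% at 100 RPKM or more (26.9 to 35.0, 150 of 487 genes). The intervals of the last 2 classes did not overlap, but the genes at 100 RPKM or more were shorter (median 1981 bases, against 2995 from 10 to 100 RPKM). Within quartiles of gene length the intervals of these classes overlapped in all 4, with 43.1% against 53.3% in the longest quartile and 14.3% against 11.5% in the shortest. In 10 equal classes of the genes with an RPKM above 0, the share was highest at 43.3% between 5.08 and 9.07 RPKM, and it was 37.4% in the class of highest RPKM.

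Promoter peaks outside CpG islands were distributed in another way. Their share was 13.1% under 0.1 RPKM, 22.6% from 0.1 to 1, 21.8% from 1 to 10, 20.6% from 10 to 100 and 17.9% at 100 RPKM or more. Above 0.1 RPKM it did not increase with expression, whereas that of exon peaks was 38.8% from 1 to 10 RPKM and 23.8% from 0.1 to 1. Intron peaks went with expression like exon peaks, with 47.0% of genes from 1 to 10 RPKM and 15.6% under 0.1 RPKM, and were at 24.8% at 100 RPKM or more.

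**Figure D2:**
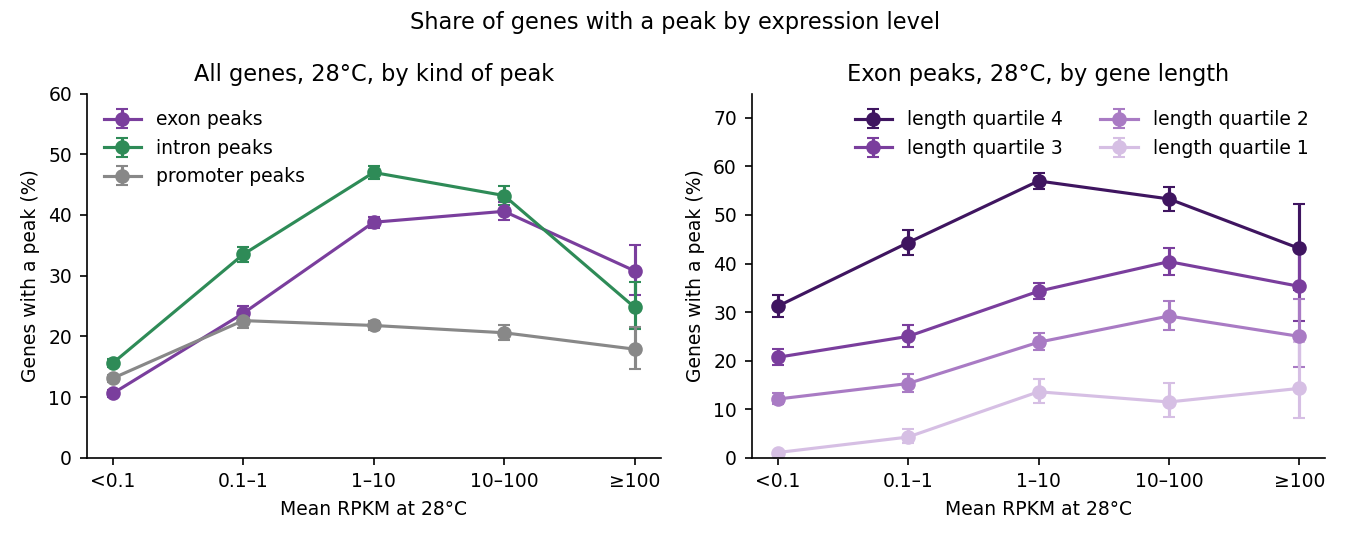
Share of genes with at least 1 peak with reads at 28°C (y axis, percent) by mean RPKM at 28°C (x axis), for exon, intron and promoter peaks outside CpG islands (left) and for exon peaks within quartiles of gene length (right, quartile 4 the longest). Points are shares and bars 95% Wilson intervals. Exon peaks are at 10.6% in the lowest class and 40.6% from 10 to 100 RPKM, while promoter peaks stay between 13.1% and 22.6%.

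Gene length moved with the result, since expressed genes were longer (median 2891 bases from 1 to 10 RPKM and 867 bases under 0.1 RPKM) and a long gene has more room for a peak. Within quartiles of length, exon peaks were found in 13.1% of expressed and 1.09% of silent genes in the shortest quartile, in 25.4% and 12.1% in the second, in 36.0% and 20.7% in the third and in 55.6% and 31.2% in the longest. The mean of the 4 differences was 16.2 points, so the difference was smaller within length quartiles and kept its direction in all 4. Lengths still varied within a quartile, from 10 to 759 bases in the shortest and from 3851 to 261187 in the longest. In the shortest quartile promoter peaks also went with expression, at 3.37% under 0.1 RPKM and 19.3% from 1 to 10 RPKM. In the other quartiles they did not.

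The height of the exon peaks was compared with expression as well. The median level per kilobase of genes with an exon peak was 6.37 RPM under 0.1 RPKM, 6.33 from 0.1 to 1, 6.30 from 1 to 10, 6.60 from 10 to 100 and 6.14 at 100 RPKM or more. Spearman's rank correlation between the level per kilobase and RPKM was 0.0254 across 8185 genes at 28°C, and between -0.0694 and 0.0249 within length quartiles. Without division by peak length it was 0.138. These are correlations across genes, which are not independent replicates, on peaks with a median of 16.0 reads, and at such counts a weak correlation is no finding. The number of peaks showed a clearer order: the median RPKM at 28°C was 5.37 for genes with 5 or more exon peaks, 4.10 with 3 or 4, 3.20 with 2, 2.52 with 1 and 0.120 with none, and the median lengths of these classes were 8040, 5618, 4333, 3178 and 1386 bases.

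Groups of genes with a known pattern of use showed how far the relation goes. The lists were chosen with earlier results of these data known and are described by their counts. Of 138 spliceosome genes (median 16.8 RPKM at 28°C), 61 had an exon peak with reads at 28°C (44.2%, 36.2 to 52.5), and of 55 proteasome genes (48.3 RPKM) 19 did (34.5%, 23.4 to 47.7). Of 80 ribosome genes (522 RPKM), only 8 did (10.0%). Ribosomal protein genes were thus near the share of silent genes of all lengths, while they were among the most abundant transcripts. Their median length was 1602 bases, and that of the proteasome genes 1578 bases. The cause of the low share was not tested.

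Genes of tissues that these cells do not represent were also examined. None of 9 eye genes, among them crybb1 and gnat1, had an exon peak (0 of 9, for which a limit of 3 counts allows a share of up to 33.3%), nor had any of 5 pancreas genes (0 of 5, up to 60% by the same limit). All 9 eye genes were under 0.1 RPKM at 28°C, and their median length was 1847 bases. Of 10 neuronal genes 7 had an exon peak with reads at 28°C, and 6 of the 10 were under 0.1 RPKM. Of 10 muscle genes 4 had one, and 7 of the 10 were under 0.1 RPKM. The exon peaks of nrxn1a, the gene of the presynaptic adhesion protein neurexin, held 130 reads at 18°C /5d, 97 at 18°C /30d and 137 at 28°C at a mean of 0.387, 0.430 and 0.450 RPKM. Those of ryr1b, the calcium release channel of skeletal muscle, held 79, 111 and 95 reads at a mean of 0.203, 0.257 and 0.260 RPKM. Of 17 large extracellular matrix and cell surface genes 10 had an exon peak with reads at 28°C, in a list with a median length of 11272 bases. Several exon peaks were thus found in long genes whose mean RPKM was well under 1.

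Fibroblast genes were mixed. Of the 12 markers 4 had an exon peak with reads at 28°C, and col5a1 carried 8 of the list's 16 exon peaks, with 283 reads at 18°C /5d, 270 at 18°C /30d and 340 at 28°C. The collagen genes col1a1a and col1a2, at a mean of 251 and 201 RPKM at 28°C, had none. Among all genes with an exon peak, the named transcripts of highest level were ribosomal: rpl26 had a mean of 1645 RPKM at 28°C and 21, 35 and 61 reads on its peak at 18°C /5d, at 18°C /30d and at 28°C. The highest without an exon peak was zgc:158463, at 904 and 1565 RPKM in replicates 1 and 2 at 28°C and 59805 RPKM in replicate 3.

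Cold and exon peaks were compared next, library against library. In the 18°C /5d library, 2001 exon peaks were called higher and 1984 lower than in the 28°C library (Fisher's exact test per peak, at an FDR up to 0.01 and at least a 2-fold change of RPM + 1), which is 21.6% of 18412, against 23.7% of all peaks (11.3% higher, 12.5% lower). In the 18°C /30d library 1924 were called higher and 1600 lower (19.1%, all peaks 20.2%, with 10.9% higher and 9.25% lower), and between the 18°C /30d and the 18°C /5d library 2363 were higher and 1493 lower (20.9%, all peaks 22.9%, with 14.4% higher and 8.50% lower). In each comparison the share in exon peaks was slightly below that in all peaks.

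Most of these calls rested on a 0. At 18°C /5d, 92.6% of the calls had a 0 in 1 of the 2 libraries, and at 18°C /30d 98.8%. Peaks were called in each library and then merged, so a peak listed at 0 in a library entered the set through another library. Calls against a 0 therefore follow in part from how the set was built. This limit holds also for the peaks and genes named below that are listed at 0 in a library. Among exon peaks with reads in both libraries, 104 were called higher and 189 lower at 18°C /5d (2.86% of 10261, all such peaks 4.22%, with 1.64% higher and 2.57% lower). The 18°C /30d library had 15 higher and 26 lower (0.381% of 10763, all such peaks 0.461%, with 0.242% higher and 0.219% lower). Between the cold libraries, 162 were higher at 18°C /30d and 113 lower (2.78% of 9901, all such peaks 4.26%, with 2.46% higher and 1.81% lower). When the smallest count of a library stood in for its zeros, there were 668 calls for 18°C /5d (all peaks 4.70%) and 240 for 18°C /30d (all peaks 1.23%). The direction of the calls also moved with the settings. With at least 10 reads required in 1 of the libraries, 1277 of 13049 were higher and 2390 lower at 18°C /5d (all peaks 30.9% called). With totals scaled to the median ratio, 1951 were higher and 1923 lower between 18°C /30d and 18°C /5d (all peaks 22.9% called).

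For the 9038 exon peaks that had reads in every library, the median log2 ratio against 28°C was 0.05 at 18°C /5d (quartiles -0.31 and 0.37) and 0.06 at 18°C /30d (-0.20 and 0.33). Over all peaks it was 0.00 and 0.06. The spread at 18°C /5d was wider, with 6.34% of exon peaks at least 2-fold apart, against 1.73% at 18°C /30d. Over all peaks these shares were 8.52% and 1.73%. Peaks of high counts went different ways at the 2 times: with 100 reads or more in the larger library, the median was 0.29 at 18°C /5d and -0.20 at 18°C /30d. All peaks of that depth gave 0.28 and -0.19, close to the exon peaks.

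**Figure D3:**
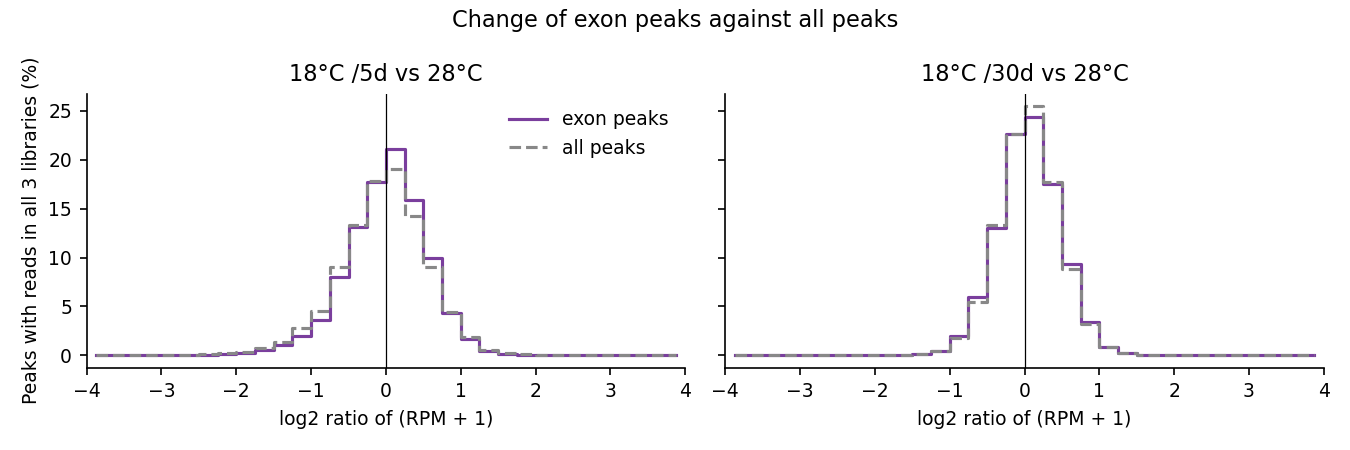
Distribution of the log2 ratio of (RPM + 1) (x axis) over peaks with reads in all 3 libraries (y axis, percent of peaks in bins of 0.25), for 18°C /5d against 28°C (left) and 18°C /30d against 28°C (right). Solid lines are the 9038 exon peaks outside CpG islands and dashed lines all peaks. Both centre near 0, and the 18°C /5d distribution is wider.

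Among called peaks that had reads in every library, the largest rises at 18°C /5d lay in trak2, ubr3, sin3aa and the gene of TANK-binding kinase 1. The exon peak of trak2 (chr6:4064727-4066935), which links mitochondria to kinesin motors, had 112 reads (45.4 RPM) at 18°C /5d, 22 (9.14 RPM) at 18°C /30d and 20 (6.77 RPM) at 28°C, a log2 ratio of 2.58 at 18°C /5d. The peak of ubr3 (chr9:3913696-3915245), a ubiquitin ligase, had 45, 14 and 9 reads, and that of sin3aa (chr25:6728337-6729458), a scaffold of histone deacetylase complexes, had 45, 13 and 9. In these 3 the 18°C /30d library was nearer to 28°C than to 18°C /5d. The peak of TANK-binding kinase 1 (chr19:46934953-46936154), a kinase of interferon signalling, had 21, 16 and 5 reads.

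The largest falls at 18°C /5d lay in an uncharacterized gene on chromosome 12 (chr12:50325459-50327186) with 8 reads at 18°C /5d, 65 at 18°C /30d and 115 at 28°C, and in ift172, pidd1 and npc1. The peak of ift172 (chr20:38924971-38925793), a protein of transport in cilia, had 6, 43 and 79 reads (log2 ratio -3.01). That of pidd1 (chr25:4737868-4739460), an adaptor of p53-induced apoptosis, had 5, 23 and 52 reads (-2.62). The peak of npc1 (chr2:4331144-4332520), which exports cholesterol from lysosomes, had 10, 60 and 83 reads (-2.53). In each of these the 18°C /5d library was the low one and the 18°C /30d library lay between the others. Peaks chosen for the largest ratio between libraries tend to have the remaining library between them. This order is therefore no finding, for rises or falls at either time.

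At 18°C /30d the largest rises were smaller. The peak of chn1 (chr9:2555024-2556786), a GTPase-activating protein for Rac, had 25 reads at 18°C /30d and 7 at 28°C (log2 ratio 1.76), and that of jak2b (chr5:69087340-69088744), a kinase of cytokine receptors, 24 and 7 (1.70). The peak of rab3il1 (chr25:3083701-3084639), which acts on Rab GTPases, had 31 reads at 18°C /30d and 10 at 28°C (1.66), and that of rbm25b (chr20:51480339-51481066), a splicing regulator, 21 and 7 (1.53). In all 4 peaks the 18°C /5d library lay between the other libraries. The largest falls lay in sv2ba (chr7:16052223-16053643), a synaptic vesicle protein, with 11 reads at 18°C /30d and 53 at 28°C (-1.77), and in cabin1 (chr8:54168888-54172711), an inhibitor of calcineurin, with 17 and 62 (-1.45). The peak of lamtor1 (chr15:42947179-42950053), which anchors the Ragulator complex to lysosomes, had 17 and 60 reads (-1.40), and that of ppm1ba (chr13:10259402-10262593), a protein phosphatase, 78 and 255 (-1.39). The cabin1 peak was 1 of 15 exon peaks of that gene, of which 2 were called higher and 1 lower at 18°C /30d.

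**Figure D4:**
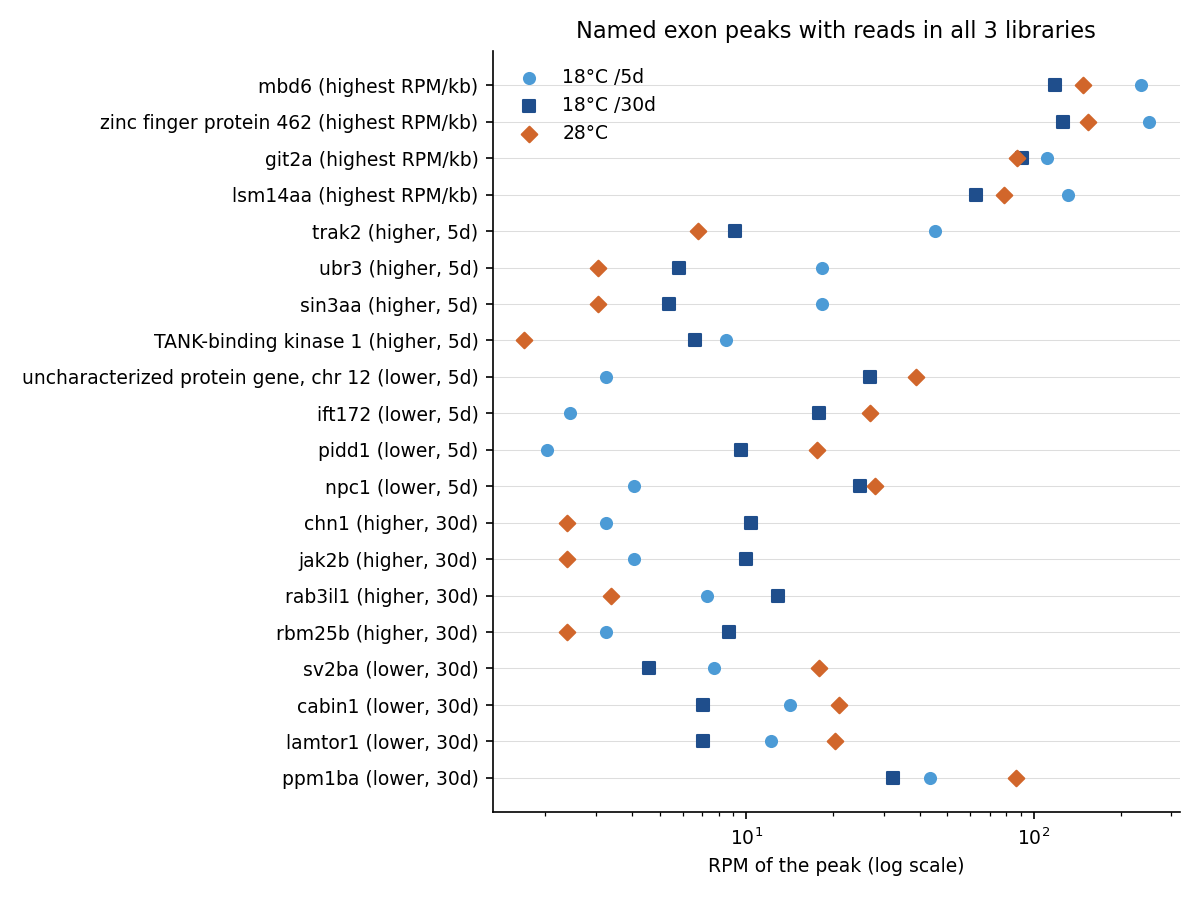
RPM (x axis, log scale) of 20 named exon peaks with reads in all 3 libraries, 1 row per peak, with 1 point for the library of each condition. The rows marked 5d were chosen by the ratio of 18°C /5d to 28°C. In them the 18°C /5d point stands apart from the other 2, as in trak2 at 45.4 RPM (18°C /5d), 9.14 RPM (18°C /30d) and 6.77 RPM (28°C), except in TANK-binding kinase 1, where both cold points lie above 28°C.

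Against 28°C, 1380 exon peaks (7.50%, all peaks 7.88%) were called at both times, 591 higher and 788 lower at both and 1 in opposite directions. Over all 160561 peaks these counts were 4786, 7813 and 46. Both comparisons share the 28°C library. Over all peaks 86 of the 12645 called at both times had reads in all 3 libraries, and only 6 of the 1380 exon peaks did. These were dvl3a with 41 reads at 18°C /5d, 41 at 18°C /30d and 20 at 28°C, abce1 with 62, 48 and 26, PRRC2C with 32, 55 and 143, cpne8 with 27, 24 and 68, tulp1b with 18, 20 and 57, and sv2ba with 19, 11 and 53. They were singled out after their values were seen. The protein of dvl3a transmits Wnt signals and that of abce1 recycles ribosomes.

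The extremes among those called at both times had a library at 0. An exon peak of erbb2 (chr12:10164496-10168803), a receptor tyrosine kinase, had 334 reads at 18°C /5d and 257 at 18°C /30d and was listed at 0 at 28°C. The peaks of WDFY3 (chr5:41761122-41763688) with 92 and 104 reads and of trpm4b3 (chr12:5103109-5104456), a cation channel, with 49 and 64 reads were also listed at 0 at 28°C, as was one of an uncharacterized gene (chr17:53841037-53843106) with 250 and 2334 reads. In the other direction, myef2 (chr18:4672030-4672986), reep3b (chr12:9636040-9638919), HEAT repeat containing 1 (chr12:10408432-10410102) and grik1b (chr15:41181033-41182726) had 69, 61, 60 and 50 reads at 28°C and were listed at 0 in both cold libraries. The RNA of these genes did not pass the test at either time. Erbb2 had 29.5, 24.5 and 24.8 RPKM at 18°C /5d, 26.9, 16.2 and 35.8 RPKM in the 18°C /30d libraries, against 24.3, 32.0 and 85.6 RPKM in those at 28°C, with overlap between the conditions.

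The calls were also counted within genes. Of 531 genes with at least 2 called exon peaks at 18°C /5d, 262 had all of them in 1 direction and 269 had both directions. At 18°C /30d these were 201 and 210 of 411 genes. Over all exon peaks, higher and lower calls were near equal in number at 18°C /5d (2001 and 1984), and no count by gene was made for other peaks.

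RNA levels were then set beside the calls. As in any bulk sample, fewer cells of a type and less RNA per cell cannot be told apart. Of 8457 genes with an exon peak that were tested, edgeR's quasi-likelihood test with Benjamini-Hochberg adjustment called 0 at 18°C /5d (all genes 0%) and 5 at 18°C /30d (2 higher, 3 lower, all genes 0.0612%). At an unadjusted p under 0.05 there were 974 (11.5%, all genes 11.3%) and 1168 (13.8%, all genes 13.7%). Libraries of the same replicate number deviated together across conditions on average (mean correlation 0.476, and -0.212 for different numbers). The deviations were taken from the mean of each condition, so a positive mean for same numbers brings a negative one for different numbers. With the replicate number as a block 15 genes with an exon peak were called at 18°C /5d (4 higher, 11 lower, all genes 0.260%) and 133 at 18°C /30d (88 higher, 45 lower, all genes 1.51%). DESeq2 called 225 (all genes 2.69%) and 378 (all genes 4.36%). Between 18°C /30d and 18°C /5d edgeR called none with or without the block (all genes 0%). In edgeR's test without the block 104 had an unadjusted p under 0.05 (1.23%, all genes 1.28%), and DESeq2 called 1 (all genes 0.00761%).

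The 5 genes called at 18°C /30d all had an adjusted p of 0.0445 and lost the call when any 1 of the 9 libraries was left out. With replicates 1 and 2 only, 20 of 8418 genes with an exon peak were called, and no share over all genes was counted in this setting. The pigment gene tyrp1b had 1.72, 2.56 and 4.15 RPKM at 18°C /30d, against 0.06, 0.10 and 0.09 at 28°C (log2 fold change 5.06 ± 0.54, SE). Its exon peak had 11 reads at 28°C and was listed at 0 in both cold libraries. The gene golga7ba had 3.30, 3.03 and 3.75 RPKM at 18°C /30d, against 0.52, 0.89 and 0.98 at 28°C (2.13 ± 0.24), and its peak 13 reads at 28°C and 0 in both cold libraries. Both genes were higher in the cold without overlap of the libraries, and each had 1 exon peak. The named-gene rule, which required a mean CPM of 5, took golga7ba alone.

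The other genes were lower at 18°C /30d and had exon peaks that were not called at that time. The gene rcn3, a calcium-binding protein of the endoplasmic reticulum, had 4.37, 4.27 and 4.78 RPKM at 18°C /30d, against 14.7, 13.5 and 21.2 at 28°C (-1.83 ± 0.22), and 10 and 8 reads on its peak. The adenosine kinase gene adka had 1.98, 1.75 and 2.63 RPKM at 18°C /30d, against 6.25, 6.60 and 8.78 at 28°C (-1.74 ± 0.21), and 33 and 32 reads on its 2 peaks. The small GTPase gene rac3b had 0.09, 0.06 and 0.07 RPKM at 18°C /30d, against 0.54, 0.74 and 0.60 at 28°C (-2.98 ± 0.38), and 23 and 21 reads on its peak. In these 3 genes RNA was lower in all 3 libraries at 18°C /30d. Their reads on exon peaks, not scaled to the totals, were slightly more at 18°C /30d, the library of smaller total (2406158 reads, against 2952954 at 28°C). At 18°C /5d the rcn3 peak was listed at 0, the adka peaks held 14 reads with 1 peak called lower, and the rac3b peak held 20 reads.

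With the replicate block, 4 genes called at 18°C /5d, with a mean CPM of at least 5 over the 9 libraries, also had an exon peak called in the same comparison and no overlap between the conditions, namely wif1, adka, setd7 and an unnamed gene. The Wnt inhibitor gene wif1 had 30.4, 52.9 and 52.9 RPKM at 18°C /5d, against 6.21, 16.9 and 5.10 at 28°C (log2 fold change without the block 2.28 ± 0.50), and its peak was listed at 0 at 18°C /5d and had 13 reads at 28°C. The lysine methyltransferase gene setd7 had 3.17, 3.0 and 3.95 RPKM, against 8.98, 10.5 and 10.5 (-1.55 ± 0.21), and its peak had 13 reads at 18°C /5d and was listed at 0 at 28°C. Of all 9896 genes with an exon peak, 3228 had a called one at 18°C /5d and 2946 at 18°C /30d, so some overlap of the calls is given by these shares alone. Among genes called with the block, 2 higher and 8 lower ones at 18°C /5d had exon peaks of which none was called. At 18°C /30d these were 57 higher and 28 lower ones. No share over all genes was counted under the conditions of the 4 genes, which 32 genes met at 18°C /30d. Under this limit on CPM, which tyrp1b did not reach, those with the largest change were prkag3a, snai2, lmtk3 and USH1C, which were higher, and pappa2, which was lower. Each had 1 called exon peak in that comparison, which was higher in prkag3a, snai2 and pappa2 and lower in lmtk3 and USH1C. The peak of snai2, a transcription factor of mesenchymal cells, had 8 reads at 18°C /30d and was listed at 0 at 28°C, and its RNA was at 3.90, 9.64 and 18.9 RPKM, against 1.18, 1.33 and 2.82 at 28°C.

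Across all genes with called exon peaks, the median change in RNA was near 0 whichever way the peaks were called. At 18°C /5d the median log2 fold change in RNA was 0.02 for 1312 tested genes with exon peaks called only higher, -0.01 for 1269 with only lower ones and -0.01 for all 19622 genes tested. At 18°C /30d it was 0.04 for 1308 genes with only higher peaks, 0.00 for 1087 with only lower ones and -0.01 for all genes. The quartiles of these groups overlapped almost wholly. When only called peaks with reads in all 3 libraries were used, the medians were 0.05 (94 genes, higher peaks) and -0.16 (150 genes, lower peaks) at 18°C /5d. At 18°C /30d they were 0.11 (14 genes) and -0.13 (23 genes). With such lower peaks, 36.7% of genes at 18°C /5d and 34.8% at 18°C /30d had a fold change above 0. With higher peaks these shares were 52.1% and 57.1%, and over all genes 49.4% and 49.3%. No test was made across genes. None of these genes passed edgeR's test, which is no finding, since it called 0% and 0.0612% of all genes.

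**Figure D5:**
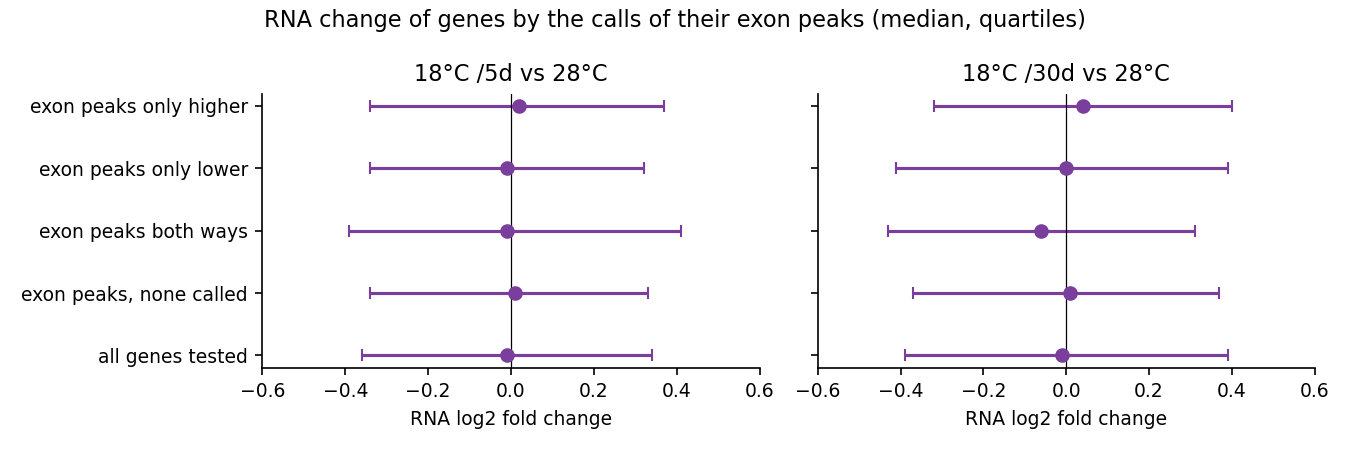
RNA log2 fold change (x axis) of genes grouped by the calls of their exon peaks (rows), for 18°C /5d against 28°C (left) and 18°C /30d against 28°C (right). Points are medians and bars the quartiles over genes. All medians lie between -0.06 and 0.04.

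Of the methylation machinery, 28 genes were measured, from a list of DNA methyltransferases, H3K36 methyltransferases, TET and repair enzymes, methyl-CpG binding proteins and enzymes of the methyl donor. None passed edgeR's test at either time (all genes 0% and 0.0612%), nor DESeq2's (all genes 2.69% and 4.36%). In edgeR's test 2 and 3 had an unadjusted p under 0.05 (all genes 11.3% and 13.7%). In a list of 28 genes such counts are no finding about the machinery. The median log2 fold change of the list was -0.21 after 5 days and -0.50 after 30 days of cold, and -0.01 for all genes at both times. The 28 genes carried 26 symbols, since uhrf1 and mbd3b each stood for 2 gene identifiers. Those of uhrf1 had near-equal RPKM in each library and count as 2 genes here. With the replicate block mat2aa, which makes the methyl donor S-adenosylmethionine, was lower at both times (edgeR adjusted p = 0.0446 and 0.0440 with the block, 0.282 and 0.305 without). Of all genes, 0.260% and 1.51% were called with the block. The gene mat2aa was the only 1 called from the list. It had 17.0 ± 8.59 RPKM at 18°C /5d, 20.9 ± 9.19 at 18°C /30d and 50.4 ± 26.2 at 28°C (SD, n = 3).

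The methyltransferases themselves had means under 10 RPKM. DNMT1 had 5.59 ± 1.52 RPKM at 18°C /5d, 4.22 ± 1.07 at 18°C /30d and 6.48 ± 3.75 at 28°C (SD, n = 3). The gene dnmt3aa had 2.67 ± 2.32, 2.74 ± 2.62 and 1.59 ± 1.51 RPKM in the same order, and dnmt3bb.1 had 3.13 ± 0.874, 2.33 ± 0.597 and 4.26 ± 0.940. The log2 fold change of dnmt3bb.1 was -0.86 ± 0.27 at 18°C /30d (adjusted p = 0.211 in edgeR), and that of DNMT1 -0.57 ± 0.47 (SE, adjusted p = 0.672). The H3K36 methyltransferase gene setd2 had 4.48, 3.77 and 5.47 RPKM. These genes were themselves methylated in exons in part: 18 of the 28 had an exon peak with reads at 28°C, in a list with a median length of 7783 bases. Of their 55 exon peaks 5 were called higher and 6 lower at 18°C /5d (all peaks 23.7% called), and 4 higher and 4 lower at 18°C /30d (all peaks 20.2%). The H3K36 methyltransferase nsd1a had 9 exon peaks with 138 reads at 18°C /5d, 172 at 18°C /30d and 177 at 28°C, and dnmt3aa had 7 with 99, 84 and 113, while DNMT1, setd2 and tet3 had none.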

How the data were processed

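Per the study's methods, the authors aligned MeDIP reads to Zv9/danRer7 with Bowtie2, called peaks per library with MACS, merged them with bedtools and counted each library's reads on the merged set. The submitters' processing notes name Bowtie2, bedtools and danRer7. The deposited peak table holds read counts and RPM, which the authors scaled by the sum of that library's counts in the table. The deposited RNA table holds counts per Ensembl gene and RPKM, which the authors scaled by gene length and library total. The aligner and annotation of the RNA reads are not given in the sources used here. Columns of the authors' own comparisons (fold changes and p-values) and 9 TPM columns were not used. The input DNA library was not analysed here.

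The exon peaks and the gene lists were chosen with earlier results of these data known. Peaks were compared between libraries with a two-sided Fisher's exact test on reads, with Benjamini-Hochberg adjustment over all 160561 peaks. Calls were made at an FDR up to 0.01 where RPM + 1 differed at least 2-fold. For RNA counts, edgeR 4.0.16 was used (quasi-likelihood test, TMM, 9 libraries in 1 fit, adjusted p of at most 0.05, R 4.3.3), and DESeq2 1.42.0 was an alternative. Fold changes in RNA are fitted on counts. Shares carry 95% Wilson intervals, and shares of 0 a limit of 3 counts, for counting error only. The labels describe the RNA replicates as biological. Replicate numbers come from the labels. Deviations of same-numbered RNA libraries of different conditions correlated at 0.266 to 0.672 (9 pairs, mean 0.476). Those of different numbers correlated at -0.699 to 0.513 (18 pairs, mean -0.212), so the ranges overlapped. The negative mean follows from taking deviations from the mean of each condition and is no separate evidence of pairing. Replicate 3 stood apart in each condition, and pairing of replicates 1 and 2 was not examined without it. The numbers were taken as pairs, and the replicate block is given beside the counts it moves.

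Named peaks were the 5 with the highest RPM per kilobase, the 4 largest rises and 4 largest falls at each time among called peaks with reads in all 3 libraries, and the 4 highest and 4 lowest called at both times. Named genes were the 6 with most exon peaks, the 5 of highest RPKM with and without one, up to 5 per time called in RNA and exon peak with a mean CPM of at least 5 and no overlap of libraries, and list members. 1 of the named peaks is not reported here. Symbols came from best hits of at least 95% identity or the gene name table. On simulated data, 130 of 200 peaks and 76 of 200 genes changed 4-fold were called for 18°C /5d against 28°C (160561 peaks and 19327 genes). The changed peaks were drawn only from deeper exon peaks, and the simulated counts lacked the excess of zeros. The share called among shallower peaks was therefore not measured. The simulated RNA counts had the same relative spread for all genes and independent libraries, without the different make-up of replicate 3. The share of changed genes that the test calls in the real RNA data was not measured either. Alternatives covered zeros, pseudocount, thresholds, scaling, filters, gene length, left-out libraries and the block.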

Additional observations from a re-analysis of the deposited data

Results flagged for a closer look

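An exon peak of jarid2a (chr16:27737034-27737761), a cofactor of Polycomb repressive complex, was the 1 exon peak called in opposite directions at the 2 times. It had 29 reads (11.8 RPM) at 18°C /5d, was listed at 0 at 18°C /30d, and had 12 reads (4.06 RPM) at 28°C. Its log2 ratio was 1.33 at 18°C /5d, where it was called higher, and it was called lower at 18°C /30d. Between the cold libraries the peak was called lower at 18°C /30d (Fisher's exact test, FDR 4.34e-07), which compares those libraries and not the conditions. The peak was chosen for opposite calls, which already put 18°C /30d below 18°C /5d. That call also rests on a value listed at 0 and is therefore no separate evidence. The RNA of jarid2a was at most 0.08 RPKM in any library. Over all 160561 peaks, 46 were called in opposite directions at the 2 times, so such a call was not particular to exon peaks.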

How the results depend on the processing

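The counts of called exon peaks depended on how zeros were treated. For 18°C /5d against 28°C, 18°C /30d against 28°C and 18°C /30d against 18°C /5d, replacing each 0 by the smallest count of the library left 668, 240 and 711 calls (all peaks 4.70, 1.23 and 4.83%). Using only peaks with reads in all 3 libraries left 183, 8 and 171 of 9038 (all peaks 3.30, 0.103 and 3.11%), and an FDR of at most 0.001 with at least 4-fold left 1335, 1291 and 1172 (all peaks 8.10, 7.26 and 7.17%). Over all 18412 exon peaks the median log2 ratio of RPM + 1 was 0.00 at both times. It includes peaks listed at 0 in both compared libraries (1587 at 18°C /5d and 2128 at 18°C /30d). Their log2 ratio is 0 by construction, so this median does not measure a lack of change. With zeros replaced, the 18°C /5d median was -0.09 and the 18°C /30d median 0.13. Over peaks with reads in every library the 18°C /30d median was 0.06. With totals scaled to the median ratio, 1586 exon peaks were higher and 1609 lower at 18°C /30d against 28°C. In this setting too the share called in exon peaks was slightly below that in all peaks, so these calls were not particular to exon peaks.

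The difference in share between expressed and silent genes at 28°C kept its direction in each setting run. It was 30.5 points with expressed genes at 5 RPKM or more, 37.4 with silent genes at 0 counts in all 9 libraries, 31.7 with CPM, 25.7 with at least 10 reads, 29.8 with CpG island peaks included and 16.2 within length quartiles. It lay between 27.2 and 28.9 points when 1 RNA library was left out. Chosen after seeing the data, the restriction to genes with a best hit gave 22.4 points and to genes with a peak of any region 23.6. The rank correlation moved to 0.138 without division by peak length.

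The RNA calls of genes with an exon peak changed most. With the replicate block there were 15 at 18°C /5d and 133 at 18°C /30d, and 1 machinery gene was lower at each time. DESeq2 gave 225 and 378. At 18°C /30d no filter left 1, the 6 libraries compared alone left 0, and leaving out any 1 library also left 0. Replicates 1 and 2 alone, chosen after seeing the data, gave 1 call for 18°C /5d and 20 for 18°C /30d, of 8418 genes tested. No share over all genes was counted without the filter, with fewer libraries or with replicates 1 and 2 alone. In the main fit 0.0612% of all genes were called at 18°C /30d. Whether the loss of calls was particular to genes with an exon peak was therefore not measured. The causes were not tested. The single MeDIP library per condition and shallow peaks limit what can be read from any 1 peak.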

Other observations

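Exon peaks on chromosome 7 had the lowest median ratio at 18°C /5d. Their median log2 ratio against 28°C, over exon peaks with reads in all 3 libraries, was -0.15, against -0.03 on chromosome 6 as the next lowest and 0.13 on chromosome 20 as the highest. Reads were found on 66.0% of the 701 exon peaks of chromosome 7 at 18°C /5d, on 67.5% at 18°C /30d and on 75.6% at 28°C. Chromosomes 24 (64.8%) and 8 (65.0%) had lower shares at 18°C /5d, with median log2 ratios of 0.03 and 0.05. At 18°C /30d the median was 0.03 on chromosome 7, within the range of 0.00 to 0.14 over the chromosomes. Chromosome 7 was singled out after its values were seen, and no test was made.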
